A study of Mus musculus with 12 samples.

Results

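Kidney gene expression was compared between mice given busulfan plus L.J. and mice given busulfan alone, over all genes of the deposited FPKM table. The comparison takes 6 of the 12 libraries of the series, 3 from each group, which were chosen by treatment and not by any measured value. Both groups are ICR mice, an outbred stock, at 8 weeks of age, and both received busulfan, an alkylating drug that crosslinks DNA and is used to deplete bone marrow and germ cells. The busulfan plus L.J. group also received L.J., which the labels give at 10 mg/kg and abbreviate as Lu in the sample titles. What L.J. stands for is not explained, and the series' design text names FMT instead, so the nature of the treatment is uncertain. Sex and the busulfan dose are not stated, nor whether replicates are separate mice, and p-values therefore reflect the spread among libraries, which may be technical. The other 6 libraries, 3 from mice given L.J. without busulfan and 3 from control mice, entered the fit to estimate the spread. By the series title, the comparison asks whether adverse effects of busulfan on the kidney are rescued by L.J.

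The kidney filters blood in the glomerulus and recovers most of the filtrate in the proximal tubule, a cell type rich in transporters, cytochromes P450 and enzymes of lipid oxidation. The thick ascending limb, the distal convoluted tubule and the principal and intercalated cells of the collecting duct then adjust salt, water and acid. Busulfan is cleared by conjugation to glutathione, which glutathione transferases catalyse. In mice the proximal tubule also differs between the sexes, since androgens raise genes such as Kap.

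FPKM (fragments normalised for gene length and library size) was given for 21004 genes, and 12281 of them reached an FPKM of 1 in at least 3 libraries and were tested. FPKM sums were 481937 to 541844 per library, and relative depth, read from the steps between low values, ran from 0.943 to 1.059. It rests on 68 genes picked because their values above 0 lay within 1.3 times of each other. Larger differences in depth could therefore not show, and the range does not establish equal depth. Absolute depth is unknown. Markers of all nephron segments were detected, while in the lists of exocrine pancreas, adrenal cortex and skeletal muscle only 1 gene each reached the level to be tested.

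Pairs within the busulfan plus L.J. group differed by 0.182 to 0.267 on average (mean absolute log2 difference over tested genes). The 3 busulfan libraries did not resemble each other equally. Busulfan 1 and busulfan 2 differed from each other by 0.188, whereas busulfan 3 differed from busulfan 1 by 0.401 and from busulfan 2 by 0.445. Busulfan 3 lay 0.243 to 0.309 from the libraries of the 3 other groups and was thus nearer to them than to its own group, while busulfan 1 and 2 lay 0.331 to 0.454 from those libraries. The standard deviation among replicates had a median over genes of 0.142 in the busulfan plus L.J. group and 0.222 in the busulfan group on the log2 scale. Of the 12281 genes, 7033 (57.3%) had their widest spread of the 4 groups in the busulfan group.

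The genes that separated busulfan 3 from busulfan 1 and 2 included products of the proximal tubule and of blood cells. The 5 genes highest in busulfan 3 relative to the other busulfan libraries were Hbb-bs and Hbb-bt, which encode beta globins, Acsm3, an acyl-CoA synthetase of the male mouse kidney, Slc22a7, an organic anion transporter, and the histone gene Hist1h2bj. Acsm3 held 670, 555 and 645 FPKM in the busulfan plus L.J. libraries and 9.24, 41.9 and 544 FPKM in busulfan 1, 2 and 3. The 5 genes lowest in busulfan 3 were Cyp4a14, Ugt1a2, S100a8, Slc7a12 and Hdc. Ugt1a2, a glucuronosyltransferase, held 0.54, 0.97 and 0.22 FPKM with L.J. added and 61.5, 72.7 and 1.43 FPKM in busulfan 1, 2 and 3. For Acsm3 and Ugt1a2 busulfan 3 lay near the busulfan plus L.J. libraries and far from the rest of its own group. The globins, Hist1h2bj and Hdc also varied widely within other groups. Hbb-bs had 0, 372 and 18.3 FPKM in control mice, and Hdc 206, 9.20 and 79.6 FPKM in mice given L.J. without busulfan. Busulfan 3 also differed in a property of the libraries. Expression relative to the mean of all libraries fell with transcript length there (Spearman correlation -0.507, while the 11 other libraries had -0.0655 to 0.299). It rose with GC content (0.356, while the 11 others had -0.2905 to 0.1345). The correlation with length was 0.299, 0.124 and 0.033 in busulfan plus L.J. 1, 2 and 3. In busulfan 1 and 2 it was -0.018 and -0.038, so its sign differed between the groups compared. Genes are not independent replicates. The part of this trend in the results below was addressed only by a correction for length and GC content.

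With L.J. added, 398 of 12281 genes (3.24%) changed at an adjusted p under 0.05 in limma with Benjamini-Hochberg adjustment. Of these, 145 rose (1.18%) and 253 fell (2.06%), and 13 of the 145 and 44 of the 253 changed by at least 1 on the log2 scale. The groups did not overlap for any of the 398 genes. Over all tested genes, 877 (7.14%) had all busulfan plus L.J. libraries above all busulfan libraries, and 1487 (12.1%) had them all below. An unadjusted p under 0.05 was found for 2870 genes. The fit pools the spread over all groups, and the L.J. and control groups varied less than the busulfan group. With the 6 libraries of the comparison alone, 2 genes passed. The median difference over all tested genes was -0.09, and -0.13, -0.18 and 0.03 against busulfan 1, 2 and 3. The counts of gene lists that follow are to be read against these shares and medians. Scaling moved the split of calls: quantile normalization gave 402 higher and 254 lower, and median ratio scaling 328 higher and 207 lower.

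The number of calls moved with single libraries, as the plot of calls with each library left out shows. Without busulfan 3, which left busulfan 1 and 2 as the reference, 3880 genes passed, of which 980 were higher (7.98%) and 2900 lower (23.6%), and all 398 genes were among them. Counts of gene lists without busulfan 3 are to be read against these shares. Without any other of the 6 libraries the count dropped to between 1 and 71: 71, 3 and 1 without busulfan plus L.J. 1, 2 and 3, and 4 and 19 without busulfan 1 and 2. Without 1 library of the L.J. or control groups, which lend only their spread, 23 to 86 genes passed. No gene passed in all 6 repeats that left out a library of the comparison. Abhd2 and Wfdc17 passed in 5 and Phlda1 in 4, and 342 of the 398 passed in no repeat but the one without busulfan 3. The differences themselves moved less: with 1 of the 6 libraries left out, the median over the 145 risen genes was 0.50 to 0.57 and that over the 253 fallen genes -0.75 to -0.54. These medians cover genes picked by the fit with all libraries. No gene changed sign, which was fixed in advance, since the groups did not overlap for any of these genes. After correction of each library for transcript length and GC content, 28 genes passed, 19 higher (0.156%) and 9 lower (0.074%), and 24 of them were among the 398.

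**Figure D1:**
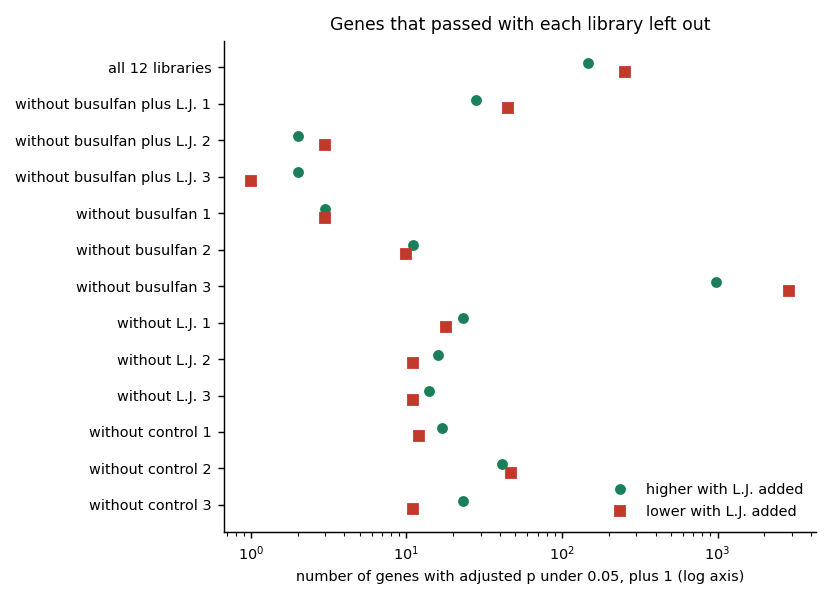
Number of genes that passed an adjusted p under 0.05, plus 1, on a log axis, higher (circles) and lower (squares) with L.J. added, for all 12 libraries and with each library left out. The counts are 145 higher and 253 lower with all libraries, 980 and 2900 without busulfan 3, and at most 40 and 46 without any other library.

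Abhd2, which encodes a lipid hydrolase, gave the smallest p-value among the genes that rose. It held 28.9, 27.8 and 30.4 FPKM in the busulfan plus L.J. libraries and 12.1, 14.9 and 16.4 FPKM in busulfan 1, 2 and 3, or 29.0 ± 1.32 and 14.4 ± 2.20 FPKM (mean ± SD, n = 3 each). The groups were far apart relative to their spread, and busulfan 3 stood with its own group (log2 difference 0.97, SE 0.11, limma adjusted p = 0.0126). The gene lies on chromosome 7 from 79273266 to 79361601 in GRCm38.p6, and its call held after the length and GC correction (limma adjusted p = 0.0404). Of the 6 libraries of the comparison, only the loss of busulfan plus L.J. 3 removed its call.

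Other genes with small p-values rose as well. Med14, a subunit of the Mediator complex, had 23.9, 20.4 and 20.1 FPKM with L.J. added and 10.6, 13.6 and 12.6 FPKM with busulfan alone (limma adjusted p = 0.0174). Col4a3, a type IV collagen chain of the glomerular basement membrane, had 53.8, 52.2 and 48.6 FPKM, against 27.95, 27.96 and 35.9 FPKM. Met, the receptor of hepatocyte growth factor, had 43.2, 40.5 and 41.6 FPKM, against 21.8, 23.3 and 29.5 FPKM with busulfan alone. Busulfan 3 was the highest busulfan library for Col4a3 and Met but stayed below every library with L.J. added. Psme4, a proteasome activator (log2 difference 0.61), Ttbk2, a kinase needed to build cilia (0.60), and Xpr1, a phosphate exporter (0.51), rose by smaller amounts, as did Castor2 (0.80) and Tmem56 (0.91). Ccdc6 rose by 1.47, and its 3 libraries with L.J. added spread from 55.5 to 99.0 FPKM. The transcripts of these 10 genes, from 5511 bp for Ccdc6 to 11152 bp for Ttbk2, were all longer than the median of tested genes, 3302 bp.

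Transcript length differed with direction over all calls. The median longest transcript was 5351 bp for the 145 genes that rose and 1595 bp for the 253 that fell, and median GC content was 45.5% and 53.4%, against 3302 bp and 49.7% for all tested genes. In the plot of transcript lengths the curves of the genes that rose and fell lie on either side of the curve of all genes. Among the 10 genes named above, only Abhd2 passed after the length and GC correction, with limma adjusted p of 0.0518 to 0.105 for the 9 others. Their differences moved little, for instance to 0.71 for Med14, 0.70 for Met and 1.48 for Ccdc6.

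**Figure D2:**
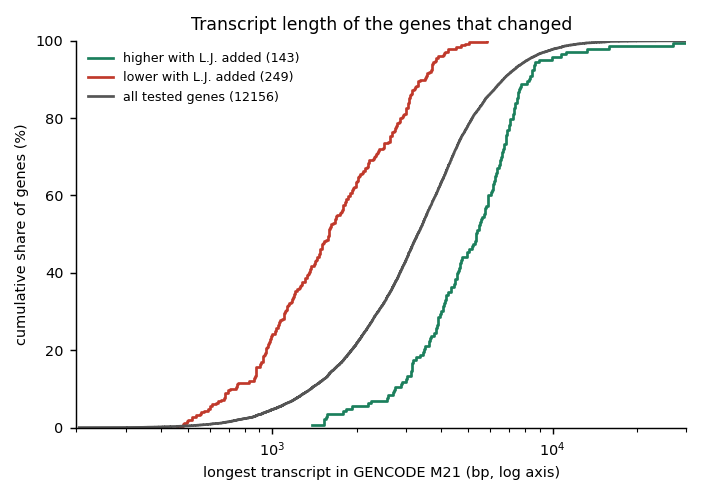
Cumulative share of genes (%) against the length of the longest transcript (bp, log axis) for genes higher with L.J. added, genes lower with L.J. added and all tested genes with an annotated length (12156). The median is 5351 bp for higher, 1595 bp for lower and 3302 bp for all genes.

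Wfdc17, a small secreted protein with a whey acidic protein domain that activated macrophages and microglia make, gave the smallest p-value among the genes that fell. Its values were 0.34, 0.92 and 0.58 FPKM with L.J. added and 2.76, 3.03 and 2.80 FPKM in busulfan 1, 2 and 3. The busulfan libraries lay close together and the groups did not overlap, although the levels are low (log2 difference -1.27, SE 0.15, limma adjusted p = 0.0126). It lies on chromosome 11 from 83704056 to 83706269 and of the 6 libraries only the loss of busulfan plus L.J. 3 removed its call (limma adjusted p = 0.0697). Phlda1, on chromosome 10 from 111506286 to 111508649, had 7.10, 7.07 and 6.47 FPKM with L.J. added and 10.4, 12.1 and 11.7 FPKM with busulfan alone. Its busulfan 3 value also lay between those of busulfan 1 and 2 (log2 difference -0.65, SE 0.09, limma adjusted p = 0.0174), and its call was lost without busulfan plus L.J. 2 or 3, and after the length and GC correction (-0.46, limma adjusted p = 0.0518).

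Other genes with small p-values also fell. Slc29a1, an equilibrative nucleoside transporter, had 7.71, 7.27 and 8.00 FPKM with L.J. added and 16.5, 17.6 and 12.5 FPKM with busulfan alone. Cntfr, a receptor subunit for ciliary neurotrophic factor, had 3.36, 2.67 and 2.82 FPKM, against 10.0, 6.78 and 6.42 FPKM. Shisa4 fell by 0.77 and the tubulin gene Tubb2a by 0.78 on the log2 scale, and Tmem258 and Tmem256 fell by 0.50 and 0.62 (limma adjusted p = 0.0174 to 0.0300 for these 4 genes). Among the genes that passed both with and without the length and GC correction were Slc29a1, Cntfr, Shisa4, Wfdc17, Gsta3 and Mup8, which fell, and Abhd2, Far1, Hist1h1c, Il6st, Apln and Cyp4a32, which rose. Il6st encodes the gp130 subunit of interleukin 6 receptors and Apln the peptide hormone apelin.

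**Figure D3:**
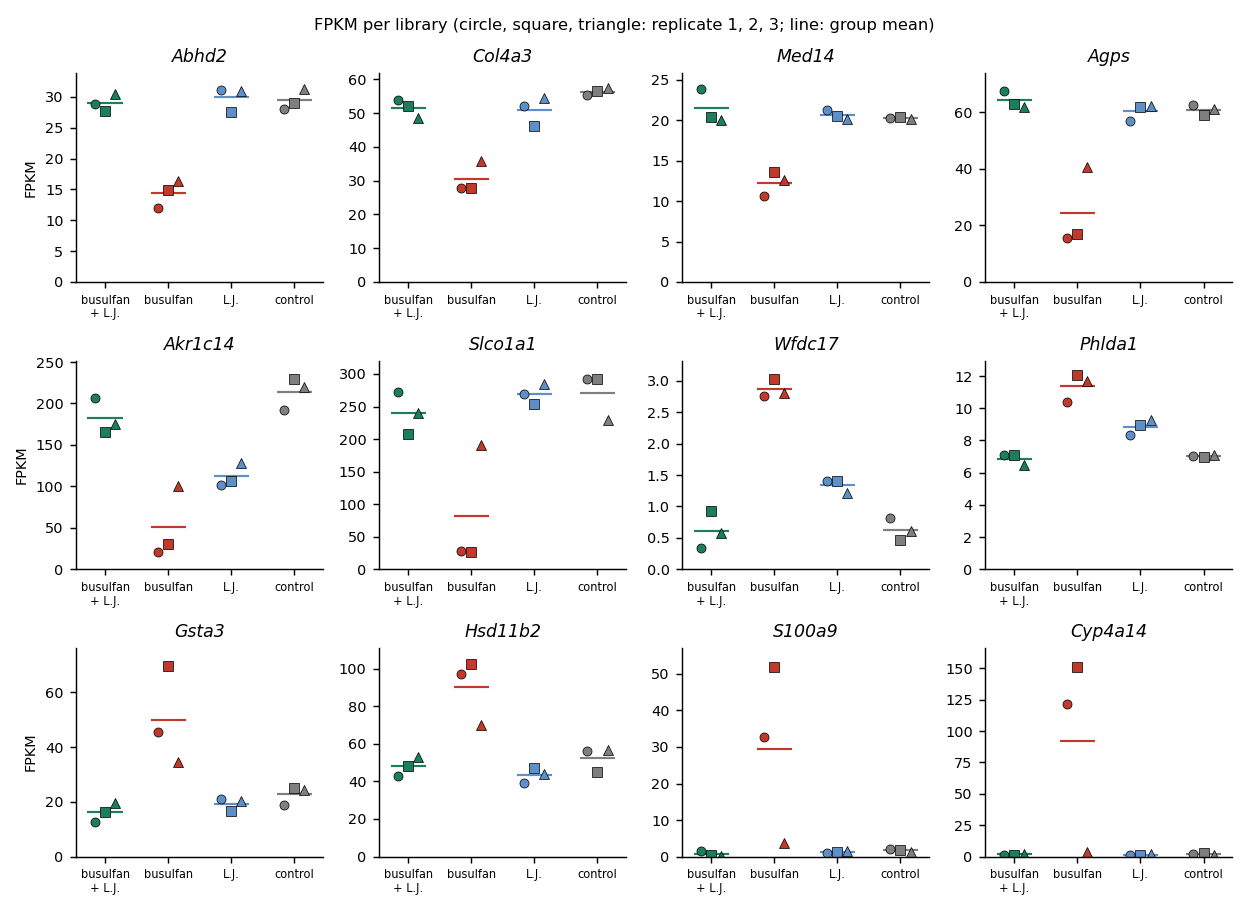
FPKM in each library for 12 genes, in busulfan plus L.J., busulfan, L.J. and control groups from left to right; circles, squares and triangles are replicates 1, 2 and 3, and lines are group means. For Abhd2, Med14, Wfdc17 and Phlda1 busulfan 3 (triangle) sits with the other busulfan libraries, while for Cyp4a14, S100a9 and Slco1a1 it sits near the busulfan plus L.J. libraries.

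For many of the genes that passed, the distance to busulfan 3 was shorter than to busulfan 1 and 2. Among the 145 genes that rose, 64 differed from busulfan 3 by at least 0.8 of the mean difference from busulfan 1 and 2, 42 by 0.5 to 0.8 of it, and 39 by less than 0.5. Among the 253 that fell these numbers were 69, 85 and 99. The median difference of the risen genes was 0.53, 0.59 and 0.43 against busulfan 1, 2 and 3, and that of the fallen genes -0.69, -0.79 and -0.40.

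**Figure D4:**
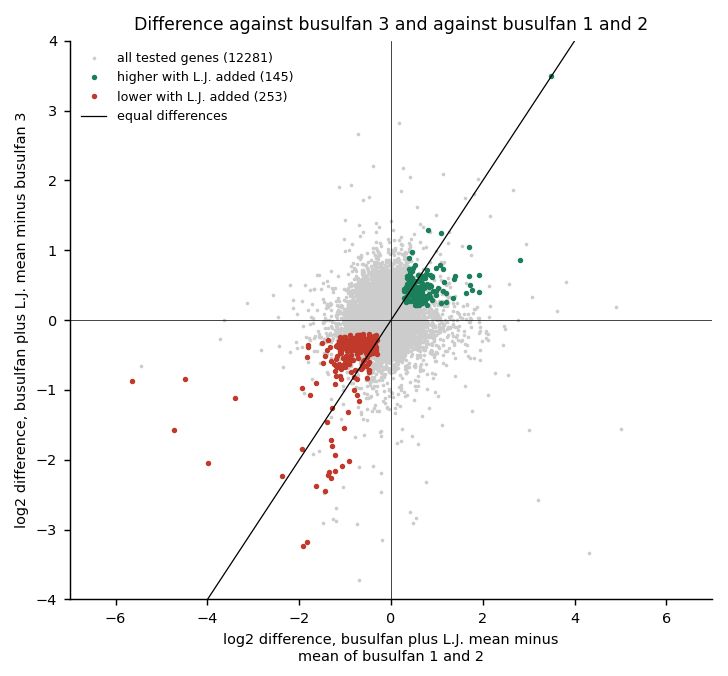
Log2 difference of the busulfan plus L.J. mean from busulfan 3 (vertical axis) against that from the mean of busulfan 1 and 2 (horizontal axis), for all 12281 tested genes (grey), 145 higher and 253 lower genes; the line marks equal differences. Of the lower genes, 99 differ from busulfan 3 by less than 0.5 of the difference on the horizontal axis, and the median of all 253 is -0.40 against busulfan 3.

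Akr1c14, a reductase that acts on steroids, had the largest rise among the named genes that passed. It held 207, 166 and 175 FPKM with L.J. added and 20.8, 30.4 and 100.1 FPKM in busulfan 1, 2 and 3 (log2 difference 2.16, SE 0.41, limma adjusted p = 0.0340). Busulfan 3 stood between the 2 other busulfan libraries and the group with L.J. added. Gpd2, the mitochondrial glycerol 3-phosphate dehydrogenase, followed the same order with 20.99, 21.6 and 15.9 FPKM, against 4.50, 6.22 and 12.2 FPKM. Akr1c14 was the only 1 of 14 tested aldo-keto reductases that passed.

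Of the genes of ether and membrane lipid metabolism, 4 of 11 tested members rose and 0 fell, against 1.18% and 2.06% of all tested genes, and the median difference was 0.31, against -0.09 for all tested genes. Against busulfan 1, 2 and 3 the median over the 11 was 0.49, 0.35 and 0.33, but 3 of the 4 genes that rose lay much nearer to busulfan 3 (Agps by 1.97, 1.87 and 0.65). Agps, which makes the ether bond of plasmalogens, had 67.7, 63.0 and 61.9 FPKM with L.J. added and 15.6, 16.8 and 40.6 FPKM with busulfan alone (log2 difference 1.5, SE 0.26, limma adjusted p = 0.0320). Far1, which supplies the fatty alcohol for that step, had 88.9, 73.1 and 71.8 FPKM, against 54.8, 60.4 and 50.1 FPKM. Far1 was thus as low in busulfan 3 as in the rest of its group, and it passed after the length and GC correction. Tmem86a, a lysoplasmalogenase, rose by 1.14, and Atp11a, a phospholipid flippase, by 1.42 with 387, 337 and 341 FPKM, against 93.8, 91.7 and 267 FPKM. Without busulfan 3, 6 members rose and 1 fell, and without any other of the 6 libraries 0 passed in either direction.

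Glutathione transferases were lower with L.J. added. Of 25 listed genes 20 were tested, and 6 fell and 0 rose, with a median difference of -0.71 over the 20, against 2.06% lower and a median of -0.09 over all tested genes. Against busulfan 1, 2 and 3 this median was -0.76, -0.96 and -0.41, so the direction was shared by the 3 libraries. The members that fell were Gsta1, Gsta3, Gstm7, Gstt1, Gstt3 and Mgst1, of the alpha, mu, theta and microsomal classes. Gsta3, on chromosome 1 from 21240565 to 21265575, had 12.6, 16.4 and 19.6 FPKM with L.J. added and 45.7, 69.8 and 34.6 FPKM with busulfan alone. Every busulfan library lay above every library with L.J. added (log2 difference -1.53, SE 0.23, limma adjusted p = 0.0174). Gsta1 had 1.61, 2.62 and 3.70 FPKM, against 13.8, 11.5 and 5.93 FPKM, and Gstm7 had 3.86, 3.41 and 3.53 FPKM, against 11.1, 11.9 and 5.57 FPKM. For both genes busulfan 3 was the lowest of the busulfan libraries. Without busulfan 3, 15 transferases fell (23.6% of all tested genes did), without any other of the 6 libraries 0 or 1 did, and after the length and GC correction 1 did, Gsta3. Gsta1 and Gsta2 are near-identical copies, and the authors' assignment of reads between such copies is not known.

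The promoters of the transferases that fell are shown because many genes of this family carry an antioxidant response element, to which the factor NRF2 binds. Sequences are from RefSeq (GRCm38.p6), the 250 bases before a transcript start, and capitals mark matches to TGACNNNGC, searched on both strands. The windows are chr1:21240335-21240584 (+) for Gsta3, chr6:138140277-138140526 (+) for Mgst1 and chr9:78230419-78230668 (+) for Gsta1.
Gsta3: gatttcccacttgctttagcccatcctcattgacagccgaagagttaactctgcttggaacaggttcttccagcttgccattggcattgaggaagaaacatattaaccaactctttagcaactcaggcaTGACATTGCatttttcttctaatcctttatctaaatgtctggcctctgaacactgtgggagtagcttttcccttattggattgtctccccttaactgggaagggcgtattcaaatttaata
Mgst1: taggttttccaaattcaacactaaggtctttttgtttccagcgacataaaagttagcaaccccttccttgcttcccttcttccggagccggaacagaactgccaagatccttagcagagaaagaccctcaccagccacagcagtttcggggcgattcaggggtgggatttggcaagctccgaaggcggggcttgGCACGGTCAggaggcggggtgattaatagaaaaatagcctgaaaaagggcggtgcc
Gsta1: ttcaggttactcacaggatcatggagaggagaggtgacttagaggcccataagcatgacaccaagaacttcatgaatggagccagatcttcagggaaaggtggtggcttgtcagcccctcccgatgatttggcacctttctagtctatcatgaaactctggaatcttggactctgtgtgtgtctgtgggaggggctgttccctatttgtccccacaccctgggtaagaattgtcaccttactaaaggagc
Gsta3 held 1 match, 121 bases before the start, Mgst1 held 1 on the reverse strand 56 bases before the start, and this window of Gsta1 held none of these letters. The 6 genes that fell have 9 such windows in the table, and 3 windows of 3 genes held a match, while 3338 of all 32851 windows (10.2%) did. The matching window of Gstm7 precedes an inner transcript start and lies within the gene, and the window before its outer start held no match. A match describes the letters of a window and is not a measured binding site. The other list of this factor, glutathione synthesis and NRF2 targets, gave 1 call: 0 of 13 tested members rose and 1 fell, with a median of 0.10. The member that fell was Ggt6, a gamma-glutamyltransferase family gene, with 0.46, 4.12 and 3.69 FPKM, against 9.45, 14.3 and 10.8 FPKM.

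Proximal tubule genes that are higher in male mice were higher with L.J. added than in busulfan 1 and 2, but not than in busulfan 3. Of 13 tested members 1 rose and 0 fell, with a median of 1.32, and against busulfan 1, 2 and 3 the median was 1.92, 2.15 and -0.09. The member that rose was Slc22a30, of the organic anion transporter family, with 192, 193 and 208 FPKM, against 70.0, 47.1 and 147 FPKM. Kap, the kidney androgen-regulated protein and among the most abundant transcripts here, held 34873, 40986 and 42454 FPKM with L.J. added and 10398, 5031 and 50482 FPKM in busulfan 1, 2 and 3. The busulfan group thus spanned the whole range of the other group, and the difference did not pass (log2 difference 1.51, limma adjusted p = 0.188). Slco1a1, an organic anion transporter, had 272, 208 and 241 FPKM, against 28.4, 27.0 and 190.3 FPKM, and also missed the threshold (limma adjusted p = 0.0558). Without busulfan 3 all 13 members rose, and without any other of the 6 libraries 0 did. The 4 tested female-biased genes had a median of -1.89, and of -3.11, -2.66 and 0.06 against busulfan 1, 2 and 3 (-2.89 without busulfan 3). Of these 1 fell, Cyp4a14, while Slc22a7 of the same list lay on the other side of 0 (2.45, limma adjusted p = 0.10).

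The remaining proximal tubule lists gave few calls. Organic ion transporters had a median of 0.48 over 16 tested genes, of which 1 rose, and their median against busulfan 3 was 0.00. The lists of glucose, phosphate, bicarbonate and water transport (median 0.24 over 11 genes), amino acid transport (0.14 over 11) and endocytosis (0.22 over 7) had 0 calls in either direction. Abcg2, an efflux pump of the proximal tubule brush border, rose to 205, 224 and 236 FPKM, against 149, 150.3 and 191 FPKM, and was the only 1 of 8 tested efflux pumps that passed (limma adjusted p = 0.0499). Of the 8 differences 6 lay below 0 and 2 above (median -0.34), and 5 pumps had an unadjusted p under 0.05 in limma. Against busulfan 1, 2 and 3 the median of the pumps was -0.58, -0.67 and 0.22.

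Hydroxylases of the Cyp4 family split. Cyp4a14, which hydroxylates fatty acids and is a target of PPARA, had 1.61, 1.62 and 1.91 FPKM with L.J. added and 121, 151 and 3.98 FPKM in busulfan 1, 2 and 3. Busulfan 3 was close to the libraries with L.J. added, yet still above them, and this gene had the largest fall among named genes (log2 difference -4.06, SE 0.96, limma adjusted p = 0.0471). Cyp4a31 fell too, with 23.8, 26.0 and 23.0 FPKM, against 45.5, 47.6 and 100.7 FPKM, and here busulfan 3 was the highest. Cyp4a32 rose to 13.2, 15.3 and 13.2 FPKM, against 7.80, 7.11 and 5.08 FPKM, and held after the length and GC correction. The Cyp4a genes are close copies in 1 cluster, so reads may be split among them. Of 17 tested Cyp2 enzymes 3 fell, Cyp2a5, Cyp2d26 and Cyp2s1, and 0 rose. Cyp2a5, a coumarin hydroxylase, had 35.6, 62.3 and 44.6 FPKM, against 168, 126 and 87.6 FPKM.

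Genes of fatty acid oxidation did not move one way. Of 29 tested PPARA targets and oxidation enzymes 1 rose and 5 fell, with a median of -0.17. The 5 that fell were Cyp4a14, Cyp4a31, Acaa1b, a peroxisomal thiolase, Eci1, a mitochondrial enoyl-CoA isomerase, and Fabp1, a fatty acid binding protein. Acaa1b had 52.0, 75.5 and 66.4 FPKM, against 120.1, 120.8 and 83.8 FPKM. Hpd, an enzyme of tyrosine breakdown, fell by 3.34 on the log2 scale, with 23.0, 19.3 and 46.7 FPKM, against 393, 523 and 117 FPKM (SE 0.59, limma adjusted p = 0.0320). It was the only 1 of 7 tested tyrosine degradation genes that passed. Cholesterol synthesis had 0 calls among 24 tested genes in limma (11 at an unadjusted p under 0.05), with a median of -0.34, and gluconeogenesis and ammonia 0 among 9.

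Markers of the distal nephron were lower with L.J. added than in busulfan 1 and 2. In bulk kidney, fewer cells of a type and less RNA per cell cannot be told apart. Intercalated cell markers had a median of -0.72 over 13 tested genes, all below 0, and 2 fell. Their median was -1.07 and -1.14 against busulfan 1 and 2, but 0.03 against busulfan 3. Atp6v1g3, a proton pump subunit, had 21.5, 23.6 and 16.7 FPKM, against 55.3, 63.8 and 26.0 FPKM, and Rhcg, an ammonia channel, had 23.0, 32.9 and 26.0 FPKM, against 60.5, 60.7 and 33.5 FPKM. In both, busulfan 3 lay just above the group with L.J. added. Summed over the list, the markers held 257 to 293 FPKM with L.J. added and 273 to 583 FPKM with busulfan alone. Without busulfan 3 all 13 fell (23.6% of all tested genes did), and without any other of the 6 libraries 0 did, with list medians of -0.76 to -0.47 in those refits.

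Principal cells, the distal convoluted tubule and the thick ascending limb showed smaller medians of the same sign. In this order the medians were -0.72, -0.68 and -0.35 against busulfan 1, and -0.75, -0.66 and -0.89 against busulfan 2. Against busulfan 3 they were -0.15, 0.10 and -0.007. Among 10 tested principal cell markers 2 fell (median -0.52), Scnn1a, the alpha subunit of the epithelial sodium channel, and Hsd11b2, which inactivates glucocorticoids. Hsd11b2 had 42.9, 48.2 and 52.8 FPKM with L.J. added and 97.0, 102.6 and 70.2 FPKM with busulfan alone (log2 difference -0.88, SE 0.15, limma adjusted p = 0.0320). Scnn1a had 41.0, 38.2 and 38.5 FPKM, against 82.9, 101.8 and 50.9 FPKM. For these 2 genes busulfan 3 was nearer to the group with L.J. added than the other busulfan libraries were, without overlap. Among 11 distal convoluted tubule markers Pvalb, a calcium-binding protein, and Wnk4, a kinase that regulates the sodium chloride cotransporter, fell (median -0.39). Bsnd, the barttin subunit of chloride channels, was the 1 of 12 thick ascending limb markers that fell (median -0.41). Without busulfan 3, principal cells gave 6 falls, the distal convoluted tubule 10 and the thick ascending limb 5, and without any other of the 6 libraries 0 did. S100g, the calbindin of calcium transport, fell to 309, 408 and 430 FPKM, against 916, 770 and 601 FPKM, as the only call among 10 genes of calcium, vitamin D and Klotho. Glomerular and vessel markers gave 1 call: 1 of 12 podocyte and glomerular collagen genes rose, Col4a3, and 0 of 12 endothelial genes passed. Col4a3 went against most of its list, in which 9 differences lay below 0 and 3 above (median -0.24). Against busulfan 1, 2 and 3 the median of that list was -0.45, -0.47 and 0.18.

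Cytosolic ribosomal protein genes were lower with L.J. added. Of 86 listed genes 82 were tested, all 82 differences were below 0 (81 under quantile normalization or median ratio scaling), and 30 fell, against 2.06% of all tested genes. The median was -0.63 and ranged over members from -0.92 for Rpl36a to -0.02 for Rpl7l1. Rpl38 had 267, 259 and 266 FPKM, against 512, 618 and 358 FPKM (log2 difference -0.87, SE 0.16, limma adjusted p = 0.0331). Rps7 had 175, 167 and 190 FPKM, against 302, 376 and 239 FPKM, and Rpl41 had 796, 821 and 735 FPKM, against 1230, 1389 and 1101 FPKM. In all 3 genes busulfan 2 was highest and busulfan 3 lowest of the busulfan libraries, and the medians over the list were -0.67, -0.96 and -0.24 against busulfan 1, 2 and 3. These transcripts are short, and after the length and GC correction the median was -0.40 and 0 of the 82 passed. Without busulfan 3, 77 fell, and without any other of the 6 libraries 0 to 2 did. Ribosomal protein genes have many pseudogenes that can share reads with them.

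Other housekeeping machines gave few calls. Of 77 mitochondrial ribosomal protein genes 2 fell, Mrpl23 and Mrpl33, with a median of -0.08 that turned to 0.03 under median ratio scaling. Of 77 nuclear subunits of oxidative phosphorylation 3 fell, Atp5g2, Ndufa5 and Ndufa7, with a median of -0.16 that turned to 0.08 after the length and GC correction. Proteasome subunits had a median of 0.05 and 0 calls among 37. Replication-dependent histones had a median of 0.34 over 19 tested of 67 listed genes, and 2 rose, the linker histones Hist1h1c and Hist1h1e. Hist1h1c had 38.7, 29.1 and 36.7 FPKM, against 24.5, 19.9 and 25.5 FPKM. Many histone messages lack a poly(A) tail, and whether the libraries were selected for poly(A) is not stated.

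Liver transcripts were lower with L.J. added and lowest relative to busulfan 3. Of 14 tested liver markers 8 fell and 0 rose, against 2.06% lower over all tested genes, with a median of -1.44, and of -1.3, -0.87 and -2.10 against busulfan 1, 2 and 3. Alb, serum albumin, had 5.21, 7.21 and 5.17 FPKM with L.J. added and 22.1, 12.2 and 29.7 FPKM with busulfan alone (log2 difference -1.63, SE 0.35, limma adjusted p = 0.0437). Apoa2, an apolipoprotein of high density lipoprotein, had 3.10, 3.57 and 1.55 FPKM, against 11.96, 8.71 and 17.9 FPKM. Summed over the 14 markers, the libraries held 43.9, 42.1 and 29.3 FPKM with L.J. added and 94.6, 82.8 and 149.8 FPKM with busulfan alone. The same sum was 33.8 to 43.5 FPKM in mice given L.J. without busulfan and 79.0 to 171 FPKM in control mice. The sums of both groups given L.J. thus lay below those of both groups not given it. Major urinary proteins, pheromone carriers made mainly in the liver, had 12 tested of 21 listed genes, of which 4 fell (median -1.73), and their sum was 9.20 to 22.1 FPKM with L.J. added, against 51.3 to 150.2 FPKM. Mup8 had 0, 0 and 0.47 FPKM, against 4.77, 5.11 and 4.33 FPKM. Mup genes are near-identical copies, so the member is uncertain. Fibrinogen fell in all 3 chains: Fga by 0.81, Fgb by 1.54 and Fgg by 1.41 on the log2 scale, the only calls among 9 tested acute phase and complement genes. Without busulfan 3, 9 liver markers fell (23.6% of all tested genes did), and without any other of the 6 libraries 0 to 3 did. Whether liver RNA entered the libraries or kidney cells made these transcripts was not tested.

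Fat and red cell transcripts varied within groups. The 10 tested fat markers all had positive differences (median 0.90), but 0 passed, and their sums were 813, 474 and 80 FPKM with L.J. added and 106, 133 and 300 FPKM with busulfan alone. For the 5 tested red cell genes the median was 1.09, also with 0 calls. Their sum, over all measured members, was 3888, 2505 and 2701 FPKM, against 2248, 575 and 3518 FPKM, so that busulfan 2 stood lowest.

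The calprotectin genes were high in busulfan 1 and 2 and low in the other libraries. S100a8 and S100a9, which form calprotectin of neutrophils and monocytes, both fell. S100a9 had 1.49, 0.41 and 0.13 FPKM with L.J. added and 32.6, 51.9 and 3.73 FPKM in busulfan 1, 2 and 3 (log2 difference -3.68, SE 0.68, limma adjusted p = 0.0331), and S100a8 had 0.82, 0.56 and 0.53 FPKM, against 28.5, 44.1 and 1.92 FPKM (-3.27, SE 0.75, limma adjusted p = 0.0445). Busulfan 3 lay far below its group but above every library with L.J. added. Of 14 listed neutrophil markers 6 were tested, so most were too low, and 2 fell, both calprotectin genes. The sum of the 12 others was 8.43, 8.74 and 6.72 FPKM, against 24.6, 27.2 and 9.51 FPKM. Ngp, a granule gene of marrow precursors, was listed at 0 in all 3 libraries with L.J. added and had 2.69, 8.90 and 0.27 FPKM with busulfan alone, and Retnlg, a secreted protein of neutrophils, had 0, 0 and 0.11 FPKM, against 7.63, 4.71 and 0.40 FPKM. Elane and Mpo were listed at 0 in all of these libraries but busulfan 2. The tested markers Ly6g, Csf3r, Cxcr2 and Il1b did not pass, and Ly6g had 3.52, 3.70 and 2.94 FPKM, against 5.56, 3.55 and 3.54 FPKM. Slpi, a secreted protease inhibitor, fell to 0.69, 0.40 and 0.45 FPKM, against 9.64, 22.8 and 2.26 FPKM, and together with Wfdc17 made 2 calls among 6 tested genes of the whey acidic protein family.

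Other immune lists gave few calls. The 10 tested macrophage markers had a median of -0.46 with an even distance to the 3 busulfan libraries (-0.36, -0.47 and -0.49), and 0 passed in limma (5 at an unadjusted p under 0.05). Of the 10 differences 7 lay below 0 and 3 above, and the median was -0.25 after the length and GC correction. Summed over all measured members, macrophage markers held 97.6, 54.4 and 66.1 FPKM with L.J. added. With busulfan alone they held 95.6, 97.5 and 110.4 FPKM, so the sums of the groups overlapped. Of 5 tested lymphocyte markers 1 fell, Mzb1 of plasma and B cells, with 1.02, 0.92 and 1.37 FPKM, against 3.01, 4.77 and 2.08 FPKM. Antigen presentation had 0 calls among 13 genes, all with differences below 0 (median -0.26), which held for 11 under quantile normalization and 12 under median ratio scaling. Interferon-stimulated genes had 0 calls among 16, and their median of 0.35 and 0.22 against busulfan 1 and 2 turned to -0.73 against busulfan 3.

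**Figure D5:**
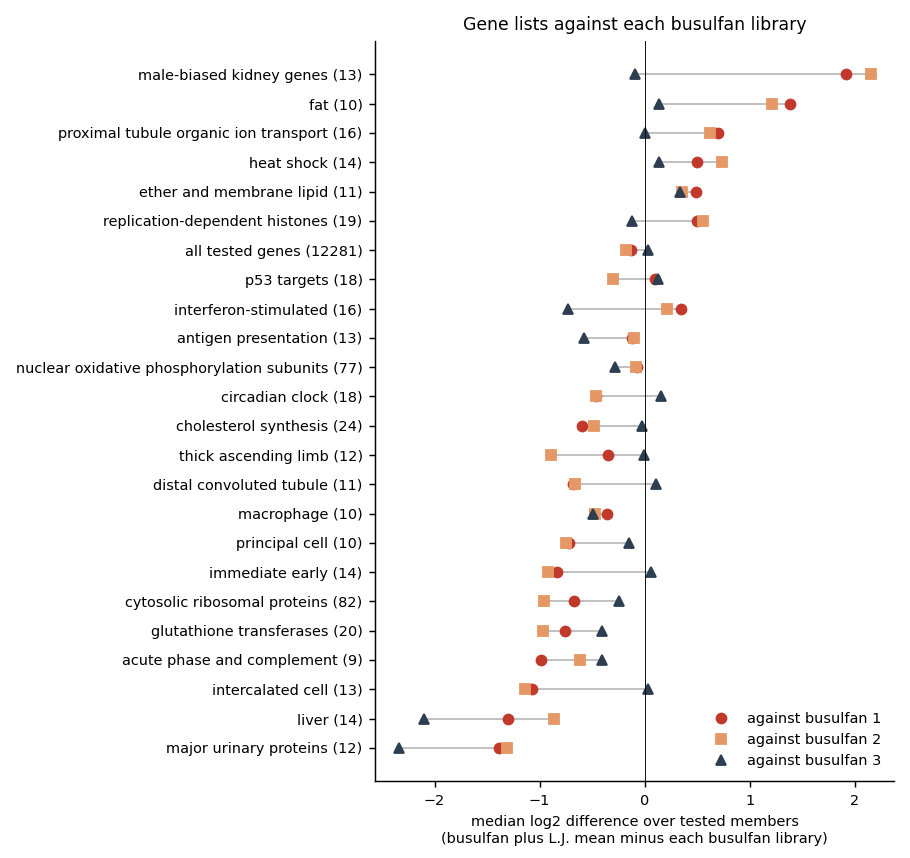
Median log2 difference of the busulfan plus L.J. mean from busulfan 1 (circles), 2 (squares) and 3 (triangles) over the tested members of each list, whose number stands in brackets. Ether and membrane lipid genes, glutathione transferases, macrophage and liver markers kept their sign against the 3 libraries, while male-biased genes (1.92, 2.15 and -0.09) and intercalated cell markers (-1.07, -1.14 and 0.03) did not.

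Genes of DNA damage and tubular injury gave no calls with all libraries. Among 18 tested p53 targets, 16 crosslink repair genes, 12 cell cycle and replication genes and 11 tubular injury genes there were 0 calls in either direction in limma, with an unadjusted p under 0.05 for 1, 2, 3 and 2 genes. Cdkn1a, the p53 target that arrests the cell cycle, had 16.1, 13.6 and 14.5 FPKM with L.J. added and 13.3, 39.3 and 18.5 FPKM with busulfan alone (log2 difference -0.51, SE 0.32, limma adjusted p = 0.346), and the high value was that of busulfan 2. Mdm2, which degrades p53, differed by 0.06 (SE 0.11, limma adjusted p = 0.793). Havcr1, the kidney injury molecule, had 2.75, 2.06 and 1.97 FPKM, against 1.99, 2.60 and 1.29 FPKM (limma adjusted p = 0.645). Lcn2, a lipocalin of injured tubules and neutrophils, had 4.10, 0.33 and 1.15 FPKM, against 7.75, 10.7 and 1.3 FPKM, and missed the threshold (log2 difference -1.34, SE 0.71, limma adjusted p = 0.275). Without busulfan 3 it passed (-2.05, limma adjusted p = 0.0381), and 3 p53 targets, 4 crosslink repair genes, 1 cell cycle gene and 1 tubular injury gene fell, while 0, 0, 2 and 1 rose. Of all tested genes 23.6% fell and 7.98% rose without busulfan 3, so the falls in these lists were near or below that share. The p-values of the genes in these lists do not show that the groups were alike. Fibrosis and matrix genes (12 tested, median 0.24) and renin-angiotensin genes (7 tested, median -0.16) also had 0 calls.

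Immediate early genes were lower with L.J. added than in busulfan 1 and 2. All 14 tested immediate early genes had differences below 0 (median -0.59), and 2 fell. Cyr61, a matricellular growth signal, had 13.7, 10.2 and 10.8 FPKM, against 20.7, 25.4 and 30.1 FPKM with busulfan 3 highest, whereas Ier3 had 9.46, 14.6 and 12.4 FPKM, against 39.6, 49.5 and 15.99 FPKM with busulfan 3 lowest. The list's median was -0.83, -0.92 and 0.06 against busulfan 1, 2 and 3. Glucocorticoid response genes had a median of -0.62 over 11 genes, and of -0.81, -1.11 and -0.03 against busulfan 1, 2 and 3. Of these genes 1 fell, Mt1, a metallothionein. Socs2, a brake on growth hormone signalling, fell to 6.26, 7.06 and 6.24 FPKM, against 16.3, 16.9 and 11.4 FPKM, as the only call among 7 tested genes of growth hormone and SOCS (median 0.06). Among heat shock genes 13 of 14 differences were above 0 (median 0.42) and 1 rose, the cochaperone Dnaja1, with 176, 170.1 and 160.3 FPKM, against 86.5, 71.4 and 142 FPKM. The median of heat shock genes was 0.50, 0.74 and 0.14 against busulfan 1, 2 and 3. The 16 tested genes of endoplasmic reticulum stress had 0 calls. Without busulfan 3, 12 immediate early genes and 7 glucocorticoid genes fell and 8 heat shock genes rose, and without any other of the 6 libraries 0 of these did.

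Clock genes bear on when kidneys were taken, which is not stated. Dbp, a clock output gene, had 7.62, 41.9 and 40.5 FPKM with L.J. added and 45.7, 35.4 and 2.93 FPKM with busulfan alone, so 1 library of each group stood apart and the groups overlapped (limma adjusted p = 0.831). Of 18 tested clock genes 1 fell, Bhlhe40, with 24.0, 27.0 and 21.2 FPKM, against 52.0, 53.2 and 32.9 FPKM. The part of sampling time in the other results was not tested.

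The effect of L.J. with busulfan was also set against its effect without busulfan, in mice given L.J. against control mice. L.J. without busulfan changed 0 of 12281 genes in limma, with 337 genes at an unadjusted p under 0.05. The fit pools the spread over all groups, and the groups differed in it. The median standard deviation was 0.222 with busulfan, 0.114 with L.J. and 0.103 in control mice. The pooled spread can thus be too wide for L.J. against control and too narrow for the busulfan group. The 0 therefore does not show that L.J. acted only with busulfan. The difference between the effects passed for 2 genes (0.0163%), Wfdc17 and Phlda1, while 1437 had an unadjusted p under 0.05. With a pseudocount of 0.1, quantile normalization or the length and GC correction 0 genes passed. Wfdc17 had 1.41, 1.40 and 1.22 FPKM in mice given L.J. and 0.81, 0.47 and 0.61 FPKM in control mice, and Phlda1 had 8.31, 8.98 and 9.26 FPKM in mice given L.J. and 7.04, 6.97 and 7.10 FPKM in control mice. Both genes were thus lower with L.J. on top of busulfan and had higher values with L.J. alone. For liver markers the L.J. and control groups also lay apart, with a median of -1.62 over the same 14 genes.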

How the data were processed

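Kidney RNA was extracted with Trizol and a column kit, and libraries were made by standard Illumina methods, per the labels' protocols. The submitters' processing notes name Bowtie 0.12.2 and mm10; which tool counted reads, with what annotation and strand setting, is not stated. The authors deposited FPKM values, 1 column per library, per the file headers, which keep no absolute depth. Samples were grouped by their description labels. Of the gene symbols, 26 stored as dates were restored by identifier, and 1 repeated symbol was dropped. Of 21004 identifiers, 20841 were found in RefSeq GRCm38.p6, which gave coordinates, and GENCODE M21 gave lengths and GC content for 12156 tested genes.

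Genes with FPKM of at least 1 in at least 3 of 12 libraries were tested on log2(FPKM + 1), so changes of low genes are understated. limma 3.58.1 (R 4.3.3, trend) fitted 1 mean per group over all 12 libraries; tests were two-sided with Benjamini-Hochberg adjustment over all tested genes, called at 0.05. FPKM are not counts, so no count model was used. The method was tested on simulated data with equal spread in all groups. That test does not cover the wider spread among the busulfan libraries. Members and 55 gene lists were chosen with earlier results of these data known, so lists are described by counts and medians, without a test. Named were the 10 smallest p and 6 largest changes per direction (predicted genes left out), up to 4 called members of each list, 5 genes each highest and lowest in busulfan 3, and 16 chosen genes, of which Fos did not reach the level to be tested. Genes counted in the text by list membership, and Il6st and Apln, were added after their values were seen. Alternatives were a pseudocount of 0.1, no filter, a filter on the mean, quantile normalization, median ratio scaling, library weights, a length and GC correction (splines with 5 degrees of freedom), a replicate block, the 6 libraries alone, and leaving out each library, which for the L.J. and control libraries was chosen after seeing the data. The values of 1 gene that passed are not reported here. Python 3.11.15, pandas 2.3.3 and matplotlib 3.10.9 made tables and plots.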

Additional observations from a re-analysis of the deposited data

Results flagged for a closer look

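For 2 genes the effect of L.J. differed between mice given busulfan and mice not given it, by limma's test of that difference. Wfdc17 was lower with L.J. added to busulfan by 1.27 on the log2 scale (difference -1.27) and higher by 0.53 with L.J. against control, which gives a difference of the effects of -1.80 (SE 0.21, limma adjusted p = 0.0252). Phlda1 had -0.65 with L.J. added to busulfan and 0.29 with L.J. against control, a difference of the effects of -0.94 (SE 0.12, limma adjusted p = 0.0467). In both genes all 3 libraries with busulfan plus L.J. lay below all 3 with busulfan, and all 3 with L.J. above all 3 control libraries. The effect of L.J. without busulfan passed for neither gene by itself (limma adjusted p = 0.999), in a fit that pools the spread over all groups. Neither call held with a pseudocount of 0.1, quantile normalization, the length and GC correction or the replicate block, under each of which 0 genes passed, nor without busulfan plus L.J. 3, busulfan 1, busulfan 2 or any 1 library of the L.J. or control groups.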

How the results depend on the processing

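The count of 398 changed genes became 150 without a filter on low values, 656 with quantile normalization, 28 after the length and GC correction, 7311 with library weights (0.0941 for busulfan 3 and 11 for busulfan 1, from an estimate that did not converge), 2 with the 6 libraries alone, and 1 to 3880 with 1 library left out, the highest without busulfan 3 (1 to 86 otherwise). It stayed within 1.5 times at 371 with a pseudocount of 0.1, 412 with a filter on the mean and 535 with median ratio scaling. A replicate block left 4 changed genes and 0 with a different effect. Same-numbered libraries of both groups had correlations of deviations of -0.0263, -0.114 and 0.0797. With 3 libraries a group these values cannot decide whether the numbers pair libraries. The 2 genes with a different L.J. effect became 0 with a pseudocount of 0.1, quantile normalization or the length and GC correction, 1 without the filter or with median ratio scaling, 4145 with library weights, and 0 to 1489 with 1 library left out, 1489 without busulfan 3. Genes with the widest spread in the busulfan group numbered 6397 to 9273. Of 81 named genes that passed, 81 also passed with a filter on the mean, with library weights or without busulfan 3. With a pseudocount of 0.1 or another scaling 70 to 73 passed, and without the filter 35. After the length and GC correction 10 passed, with the block 4, with the 6 libraries alone 1, and without any other library of the comparison 1 to 20. In 1215 refits 0 changed a sign. Where a library was left out, the block was added or the 6 libraries were fitted alone, no sign could change, because the groups did not overlap. The cause of these changes in count was not tested. Depth is unknown, and 3 libraries a group limit every call.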
